A study of Mus musculus with 6 samples.

Results

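The integrated stress response genes controlled by the transcription factor ATF4 were examined in IL-4-treated bone marrow-derived macrophages (BMDMs), the macrophages that grow out of marrow precursors in culture. A list of 37 genes was drawn up from known ATF4-regulated functions, with earlier results of these data known. Each gene was found by its symbol in the count table (*Mars* as *Mars1*), so that 37 of the 24445 genes with a count row were members. Of these, 32 passed the filter on low counts and were among the 12023 genes tested. The AclyM-KO cells came from female C57Bl/6J mice in which Cre, expressed from the myeloid *Lyz2* locus, cuts out the floxed exon 9 of *Acly*, the gene of ATP citrate lyase. Control (Ctrl) cells came from female Acly fl/fl littermates, which carry the same floxed alleles. Marrow of both genotypes was cultured for 7 days with medium from L929 cells and then received 100 U/mL IL-4 for 24 h, a cytokine that drives alternative macrophage activation, and 3 libraries were sequenced per genotype. The study describes its replicates both as biological and as technical replicates of pooled mice, so p-values measure the spread between these libraries and may not include the spread between mice.

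In the integrated stress response, kinases that sense amino acid shortage, unfolded protein in the endoplasmic reticulum, viral RNA or lack of heme phosphorylate the translation factor eIF2. General protein synthesis then slows while the *Atf4* mRNA is translated better. ATF4 pairs with other leucine zipper proteins and switches on genes for amino acid uptake and synthesis, tRNA charging, redox defence and, under lasting stress, cell death. Much of ATF4 control is translational, which counts of mRNA do not measure.

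All libraries had a similar depth, with 12151975 to 15587283 counts on the rows used, and the AclyM-KO libraries were among the deeper ones. Levels are given as CPM, the counts of a gene per 1000000 counts of its library, with library sizes scaled by the TMM method. *Acly*, on chromosome 11 from 100476353 to 100528000 of GRCm38, was at 332, 321 and 350 CPM in Ctrl and at 146, 134 and 136 CPM in AclyM-KO. Its level in AclyM-KO was thus 41.4% of that in Ctrl, and the groups did not overlap. Macrophage markers were abundant, with 12517 to 13095 CPM in Ctrl and 12211 to 12654 CPM in AclyM-KO summed over 8 genes. Of these 8, *Adgre1* rose (0.33 on the log2 scale), and *Mertk* (-0.73), *C1qa* (-0.67), *Itgam* (-0.28) and *Csf1r* (-0.20) fell. Summed over 8 neutrophil genes, the level was 16.5 to 18.8 CPM in Ctrl and 24.2 to 25.9 CPM in AclyM-KO. Of the 4 genes tested, 2 rose (*S100a8* and *S100a9*), and *Ltf* (0.35) and *Ngp* (0.37) did not pass the test. The defining marker *Ly6g* was practically absent from both groups, at 0.0676 CPM in Ctrl replicate 1 and at 0 in every other library. Summed B and T cell markers, nearly all of them *Cd4* counts, were at 14.4 to 17.8 CPM in Ctrl and 10.2 to 12.5 CPM in AclyM-KO. The dendritic cell, fibroblast, mast cell and erythroid lists stayed under 5 CPM in every library. *Cd209a* of the dendritic cell list rose (1.65 on the log2 scale), but on few counts. It was at 0.203, 0.245 and 0.455 CPM in Ctrl and at 0.819, 1.03 and 1.03 CPM in AclyM-KO. Only the AclyM-KO libraries were above the low count limit of 0.678 CPM. The part of these cells in the results was not tested. In such bulk samples, fewer cells of a type and less RNA per cell cannot be told apart.

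ATF4 binds, together with C/EBP proteins, a composite element that contains the letters TGATGNAA, where N is any base. These letters were searched on both strands in the RefSeq promoters of GRCm38.p6, which run from 250 bases before to 50 bases after each annotated gene start. A promoter was listed for 33 of the 37 members, and 12 of them (36.4%) held the letters. So did 2.88% of the 9631 tested genes with a listed promoter and 4.51% of all genes with one. Counted by promoter instead of by gene, the share was 3.97%. The list was made of known ATF4-regulated genes, so this share describes the choice of members. A match is a string of letters and not a measured binding site. Of the matches, 9 are printed here with the motif in capitals, 5′ to 3′ on the strand of the gene, for members that rose, fell or did not pass the test in AclyM-KO. On the opposite orientation the motif reads TTNCATCA.
*Trib3* (chr2:152344028-152344057, minus strand): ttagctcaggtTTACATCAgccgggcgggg
*Nupr1* (chr7:126625562-126625591, minus strand): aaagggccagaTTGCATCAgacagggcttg
*Asns* (chr6:7693214-7693243, minus strand): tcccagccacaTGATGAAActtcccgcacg
*Slc1a4* (chr11:20332699-20332728, minus strand): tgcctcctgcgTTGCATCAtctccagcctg
*Atf3* (chr1:191183425-191183454, minus strand): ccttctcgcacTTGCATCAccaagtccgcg
*Chac1* (chr2:119351038-119351067, plus strand): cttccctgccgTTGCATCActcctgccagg
*Slc7a11* (chr3:50443661-50443690, minus strand): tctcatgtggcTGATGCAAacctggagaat
*Vldlr* (chr19:27216809-27216838, plus strand): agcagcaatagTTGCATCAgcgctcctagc
*Pck2* (chr14:55540152-55540181, plus strand): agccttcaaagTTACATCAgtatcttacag
Among the windows printed, the same 8 letters, TTGCATCA, stood in the promoters of *Nupr1* and *Slc1a4*, which rose, of *Atf3* and *Chac1*, which did not pass the test, and of *Vldlr*, which was lower. The printed window of *Slc7a11*, which did not pass the test, held these letters in the opposite orientation. Further matches were found in *Gars* and *Pycr1*, and *Slc7a11* held another. The match of *Trib3* lay after the gene start used for the RefSeq promoter, at positions 15 to 22. It lay before the start of the gene in the GENCODE M21 annotation, which is at 152344032.

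Expression of the members was compared between AclyM-KO and Ctrl to ask whether loss of Acly changes this response in IL-4-activated macrophages. In AclyM-KO, 14 of the 32 members tested rose and 5 fell, with an edgeR adjusted p-value under 0.05 over all genes tested. Of all genes tested, 12.4% rose and 12.6% fell by the same rule, 24.9% in total. The members were chosen with earlier results of these data known, so this comparison describes the list and is not independent evidence. Those that rose were *Atf4*, *Atf5*, *Ddit3*, *Nupr1*, *Trib3*, *Sesn2*, *Phgdh*, *Psph*, *Mthfd2*, *Asns*, *Slc7a5*, *Slc3a2*, *Slc1a4* and *Aars*, and those that fell were *Gpt2*, *Aldh18a1*, *Pck2*, *Ppp1r15a* and *Vldlr*. Beyond the fold limit used in the study, a log2 fold change of 0.58 in either direction, were 4 members that rose (*Trib3*, *Slc7a5*, *Slc1a4* and *Nupr1*) and 1 that fell (*Vldlr*), against 2.98% and 2.57% of all genes, or 5.55% in either direction. *Slc3a2* (0.57) and *Atf4* (0.54) lay just inside this limit and *Nupr1* (0.59) just outside it. The median log2 fold change of the members tested was 0.19, beside 0.00136 over all genes, and 27 of 32 values were above 0, as were 50.3% of those of all genes. The groups did not overlap in 15 members that were higher and 2 that were lower in AclyM-KO, beside 20.5% and 19.8% of all genes. With a single library left out, the median ranged from 0.13 (without Ctrl replicate 1) to 0.31 (without Ctrl replicate 2).

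The rises held better than the falls when libraries were left out. Between 11 and 16 members rose when any single library was left out (11 without AclyM-KO replicate 1), while only 1 to 3 fell (1 without AclyM-KO replicate 3). Under all 16 alternatives run for single genes, 11 members kept an adjusted p-value under 0.05 with a rise, and 1, *Gpt2*, with a fall. All but 1 of the 32 members passed the filter on low counts through both groups. The exception was *Vldlr*, which passed through Ctrl only.

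**Figure D1:**
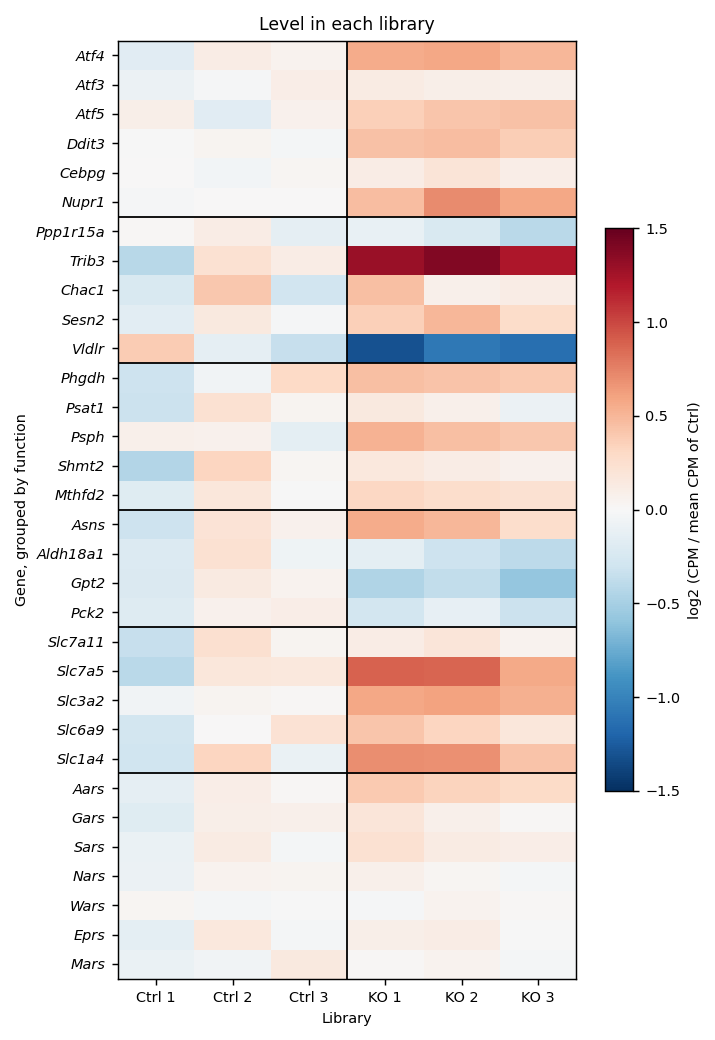
Level of each of the 32 members tested (rows, grouped by function, lines separate the groups) in each library (columns; KO stands for AclyM-KO), as log2 of CPM over the mean CPM of the 3 Ctrl libraries, with colour limited to 1.5 in either direction. *Trib3* stands out in red in all 3 AclyM-KO libraries, and Ctrl replicate 1 is the palest or bluest Ctrl library for most members.

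Libraries of the same group differed in a way that many members shared. Among the Ctrl libraries, replicate 1 had the lowest level for 24 of the 32 members, and replicate 2 the highest for 21. Over all genes tested, the Ctrl replicate 1 library was the lowest of its group for 33.0%, and Ctrl replicate 2 the highest for 36.3%. Among the AclyM-KO libraries, replicate 3 was the lowest for 27 members, compared with 34.0% of all genes. Both libraries were therefore left out together, a choice made after the data were seen, and 11 members then rose and 2 fell. The median coefficient of variation of the members was 10.6% among Ctrl libraries and 4.66% among AclyM-KO libraries. No such median was taken over all genes. The map of levels by library shows the members that rose above their Ctrl mean in each AclyM-KO library, replicate 3 included.

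Of the 6 transcription factors and cofactors, 4 rose, 0 fell and 2 did not pass the test, beside 12.4% and 12.6% of all genes. *Atf4* lies on chromosome 15 from 80255184 to 80257541 and encodes the central factor of the response. It was at 254, 308 and 296 CPM in Ctrl and at 421, 426 and 403 CPM in AclyM-KO. Every AclyM-KO library was above every Ctrl library, a rise from 286 ± 28.3 to 416 ± 12.2 CPM (SD, n = 3 each) (log2 fold change 0.54, standard error 0.0619, edgeR adjusted p = 1.39e-05). *Ddit3*, which encodes the pro-apoptotic partner CHOP, was at 61.7, 63.7 and 60.8 CPM in Ctrl and at 84.4, 85.5 and 80.2 CPM in AclyM-KO. Its groups were far apart compared with their spread (log2 fold change 0.43, standard error 0.0520, edgeR adjusted p = 2.72e-05). In the annotation, 9.1% of its exonic bases lie under exons of the other strand, those of *Mars* and *Gm4189*, and strand was not used in the counting. The log2 fold change of *Mars* was 0.01, and the part of such reads in the level of *Ddit3* was not tested.

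*Atf5*, a related factor that activates chaperone genes and mitochondrial stress genes, was at 251, 211 and 248 CPM in Ctrl and at 303, 315 and 320 CPM in AclyM-KO (log2 fold change 0.40, standard error 0.0608, edgeR adjusted p = 0.000192). Ctrl replicate 2 was its lowest library, unlike for *Atf4*, and 4.52% of its exonic bases lie under exons of *Il4i1* and *Nup62* on the other strand. *Nupr1* encodes a small stress-induced chromatin protein. It had 15.7, 15.9 and 15.9 CPM in Ctrl and 21.9, 25.9 and 23.6 CPM in AclyM-KO (log2 fold change 0.59, standard error 0.0899, edgeR adjusted p = 0.000197). The Ctrl libraries of this gene were nearly equal and all below the AclyM-KO libraries.

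*Atf3* encodes a factor that is induced in many stress and inflammatory responses. It was the most abundant of the 6 per length in Ctrl, with 304 CPM per kb of transcript, followed by *Atf4* with 166, *Atf5* with 130 and *Ddit3* with 69.7 CPM per kb. Its level was 569, 596 and 646 CPM in Ctrl and 657, 641 and 635 CPM in AclyM-KO. The groups overlapped, and the log2 fold change of 0.09 had a 95% interval of -0.01 to 0.20 (edgeR adjusted p = 0.172). Without Ctrl replicate 3, its highest Ctrl library, the value was 0.14 and passed the test. *Cebpg*, a C/EBP partner of ATF4, had 82.7, 80.6 and 84.5 CPM in Ctrl and 89.4, 94.5 and 88.3 CPM in AclyM-KO. Its groups did not overlap, but the difference was small (0.14, 95% interval 0.03 to 0.24) and did not pass the test (edgeR adjusted p = 0.0639).

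**Figure D2:**
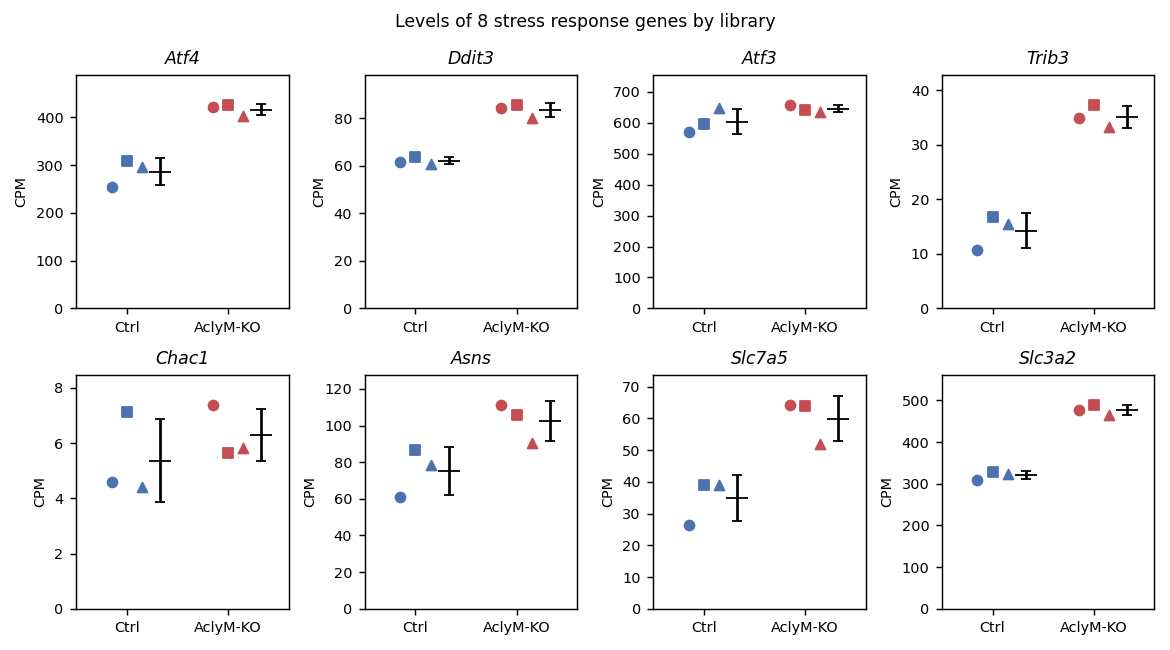
CPM of 8 members in each library of Ctrl (blue) and AclyM-KO (red), on axes that start at 0; circles, squares and triangles are replicates 1, 2 and 3, and the black line with bars is the mean with its SD. All AclyM-KO libraries lie above all Ctrl libraries for *Atf4*, *Ddit3*, *Trib3*, *Asns*, *Slc7a5* and *Slc3a2*, whereas the groups of *Atf3* and *Chac1* overlap.

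Of the 7 feedback and effector genes, 5 were tested, of which 2 rose and 2 were lower, beside 12.4% and 12.6% of all genes. *Trib3*, on chromosome 2 from 152337422 to 152344032, encodes a pseudokinase that ATF4 and CHOP induce and that restrains them in turn. It showed the largest rise among the members. Its level was 10.7, 16.7 and 15.4 CPM in Ctrl and 34.9, 37.3 and 33.2 CPM in AclyM-KO. The highest Ctrl library thus stayed well below the lowest AclyM-KO library, and the level was 2.48 times as high in AclyM-KO (log2 fold change 1.31, standard error 0.118, edgeR adjusted p = 1.33e-06). It ranked number 89 by p-value among all genes tested. Its log2 fold change was 1.13 to 1.43 when single libraries were left out, and it was the only member to pass glmTreat of edgeR, a test of whether the change exceeds the fold limit.

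*Sesn2*, which encodes a leucine sensor that inhibits the growth kinase complex mTORC1, was at 35.3, 43.6 and 38.8 CPM in Ctrl and at 50.4, 55.5 and 47.6 CPM in AclyM-KO. It rose by 0.39 on the log2 scale without overlap between groups (standard error 0.0796, edgeR adjusted p = 0.00225). *Chac1*, whose product degrades glutathione, was low, with 4.59, 7.12 and 4.40 CPM in Ctrl and 7.37, 5.66 and 5.82 CPM in AclyM-KO. The spread within each group was as large as the distance between them. The log2 fold change of *Chac1* was 0.24 with a wide 95% interval of -0.17 to 0.65 (edgeR adjusted p = 0.408), so that neither no change nor a rise like that of *Atf4* could be told from these counts.

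The negative feedback gene *Ppp1r15a* encodes GADD34, the phosphatase subunit that removes the phosphate from eIF2. It was at 36.3, 38.8 and 32.7 CPM in Ctrl and at 33.2, 30.6 and 27.1 CPM in AclyM-KO. In contrast to *Trib3*, it was lower, although the groups overlapped (log2 fold change -0.25, standard error 0.0863, edgeR adjusted p = 0.0493). This call was lost without Ctrl replicate 1 or 2 or AclyM-KO replicate 2 or 3, with log2 fold changes between -0.32 and -0.17 over the 6 libraries left out. *Vldlr*, the gene of a lipoprotein receptor, had 26, 15 and 14 counts in Ctrl and 8, 10 and 9 counts in AclyM-KO. Its groups did not overlap, but it passed the low count filter through Ctrl only and its call was lost without Ctrl replicate 1 or without any of the AclyM-KO replicates (log2 fold change -1.17, between -1.32 and -0.92 with a library left out).

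The serine pathway starts from a glycolytic intermediate and feeds glycine and the folate cycle. Of its 5 genes, 3 rose, 0 fell and 2 did not pass the test, beside 12.4% and 12.6% of all genes. *Phgdh*, the entry enzyme, was at 7.57, 9.08 and 11.6 CPM in Ctrl and at 12.9, 12.7 and 12.4 CPM in AclyM-KO (log2 fold change 0.43, standard error 0.139, edgeR adjusted p = 0.0329). *Psph*, the last enzyme of serine synthesis, was at 7.23, 7.20 and 6.22 CPM in Ctrl and at 9.89, 9.39 and 9.11 CPM in AclyM-KO (log2 fold change 0.46, standard error 0.131, edgeR adjusted p = 0.0183). Neither gene had overlapping groups. *Mthfd2*, a mitochondrial folate enzyme, was at 70.8, 90.3 and 80.4 CPM in Ctrl and at 100, 96.3 and 94.4 CPM in AclyM-KO (log2 fold change 0.27, standard error 0.0705, edgeR adjusted p = 0.0107).

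These 3 rises were less stable than those of the transcription factors. That of *Phgdh* was lost without Ctrl replicate 1 (0.29) or 2 (0.41) and without any of the AclyM-KO replicates (0.42 to 0.45). For *Psph* the same held without Ctrl replicate 3 (0.39) or AclyM-KO replicate 1 (0.43) or 2 (0.46), and for *Mthfd2* without AclyM-KO replicate 1 (0.25). With all libraries, *Phgdh* (DESeq2 adjusted p = 0.0655) and *Psph* (DESeq2 adjusted p = 0.0647) also did not pass the test of DESeq2. Of the exonic bases of *Psph*, 26.1% lie under exons of *Cct6a* on the other strand. *Cct6a* was far more abundant than *Psph*, at 151, 157 and 157 CPM in Ctrl and at 165, 161 and 155 CPM in AclyM-KO. The log2 fold change of *Cct6a* was 0.05 (edgeR adjusted p = 0.531). The part of *Cct6a* reads in the level of *Psph*, and in its rise, was not tested. *Psat1* encodes the middle enzyme of serine synthesis and did not pass the test. It had 50.9, 74.2 and 65.6 CPM in Ctrl and 70.3, 67.0 and 59.8 CPM in AclyM-KO, with overlapping groups and a log2 fold change of 0.05 (95% interval -0.16 to 0.27, edgeR adjusted p = 0.742). *Shmt2*, which converts serine to glycine in mitochondria, ranged most widely in Ctrl, with 29.1, 49.3 and 40.2 CPM, compared with 44.2, 42.8 and 41.3 CPM in AclyM-KO. Its log2 fold change of 0.12 (edgeR adjusted p = 0.519) became -0.066 without Ctrl replicate 1, and 0.31 and past the test without Ctrl replicate 2. The sign of *Psat1* also changed without Ctrl replicate 1 (-0.091).

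The remaining amino acid and carbon enzymes did not move together. Of 7 genes, 4 were tested, of which 1 rose and 3 were lower, beside 12.4% and 12.6% of all genes. *Asns*, on chromosome 6 from 7675169 to 7693254, encodes asparagine synthetase and carries an element of the letters shown above close to its start. It was at 60.8, 86.5 and 78.6 CPM in Ctrl and at 111, 106 and 90.3 CPM in AclyM-KO. The lowest AclyM-KO library, replicate 3, was only slightly above the highest Ctrl library, replicate 2 (log2 fold change 0.45, standard error 0.100, edgeR adjusted p = 0.00389). Leaving out single libraries moved this value between 0.31 and 0.56.

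*Gpt2* encodes the mitochondrial alanine aminotransferase that links pyruvate and glutamate to alanine and 2-oxoglutarate. It was the most stable member that fell, with 40.5, 51.7 and 49.0 CPM in Ctrl and 34.4, 36.3 and 31.4 CPM in AclyM-KO. All AclyM-KO libraries were below all Ctrl libraries (log2 fold change -0.46, standard error 0.0870, edgeR adjusted p = 0.00118). *Aldh18a1*, which starts proline synthesis, was at 42.3, 57.4 and 46.7 CPM in Ctrl and at 44.0, 39.2 and 37.2 CPM in AclyM-KO (log2 fold change -0.28, standard error 0.0956, edgeR adjusted p = 0.0451). *Pck2*, the mitochondrial phosphoenolpyruvate carboxykinase, was at 44.2, 52.8 and 54.2 CPM in Ctrl and at 41.8, 46.3 and 40.4 CPM in AclyM-KO (log2 fold change -0.23, standard error 0.0793, edgeR adjusted p = 0.0438). Both had overlapping groups. The call of *Aldh18a1* was lost without Ctrl replicate 2 or 3 or AclyM-KO replicate 2 or 3 (-0.31 to -0.15), and that of *Pck2* without Ctrl replicate 2 or 3 or AclyM-KO replicate 1 or 3 (-0.21 to -0.18).

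Amino acid transporters held the largest median among the functional groups. Of 5 genes, 3 rose, 0 fell and 2 did not pass the test, beside 12.4% and 12.6% of all genes. The median log2 fold change was 0.57. *Slc3a2*, on chromosome 19 from 8706882 to 8723369, encodes CD98hc, the heavy chain that brings several light chain transporters to the cell surface. It was at 309, 328 and 323 CPM in Ctrl and at 478, 488 and 464 CPM in AclyM-KO. The gap between the groups was many times their spread, from 320 ± 9.83 to 477 ± 11.7 CPM (SD, n = 3 each) (log2 fold change 0.57, standard error 0.0455, edgeR adjusted p = 3.44e-07). *Slc3a2* had the lowest p-value of all members.

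*Slc7a5*, the LAT1 light chain that imports leucine and other large neutral amino acids with CD98hc, was at 26.4, 39.1 and 38.9 CPM in Ctrl and at 64.1, 63.9 and 51.8 CPM in AclyM-KO. Its rise was the second largest among the members (log2 fold change 0.79, standard error 0.118, edgeR adjusted p = 0.000157), and it stayed between 0.62 and 0.89 when single libraries were left out. By contrast, *Slc7a11*, the cystine-importing light chain of the same heavy chain, had 20.4, 30.6 and 26.6 CPM in Ctrl and 28.0, 29.3 and 26.9 CPM in AclyM-KO. Its groups overlapped, and the log2 fold change of 0.13 (95% interval -0.11 to 0.37, edgeR adjusted p = 0.440) turned to -0.025 without Ctrl replicate 1. The ratio of *Slc7a11* to *Slc3a2* CPM was accordingly 0.0660, 0.0932 and 0.0821 in Ctrl and 0.0586, 0.0600 and 0.0580 in AclyM-KO, without overlap. This separation follows from the rise of *Slc3a2* given above and adds nothing to it. The ratio of *Slc7a5* to *Slc3a2* was 0.0854, 0.119 and 0.120 in Ctrl and 0.134, 0.131 and 0.112 in AclyM-KO, with overlap. The difference in response between these genes was not tested as such.

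The neutral amino acid carrier gene *Slc1a4* was at 10.7, 16.4 and 12.3 CPM in Ctrl and at 21.3, 21.2 and 17.7 CPM in AclyM-KO. It rose without overlap between groups (log2 fold change 0.62, standard error 0.132, edgeR adjusted p = 0.00278), by 0.49 without Ctrl replicate 1 and by 0.80 without Ctrl replicate 2. The glycine transporter gene *Slc6a9* was near the detection limit, with 12 to 15 counts in Ctrl and 16 to 19 counts in AclyM-KO. Its difference did not pass the test (log2 fold change 0.31, 95% interval -0.36 to 0.98, edgeR adjusted p = 0.518), and 44.7% of its exonic bases lie under exons of the other strand.

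**Figure D3:**
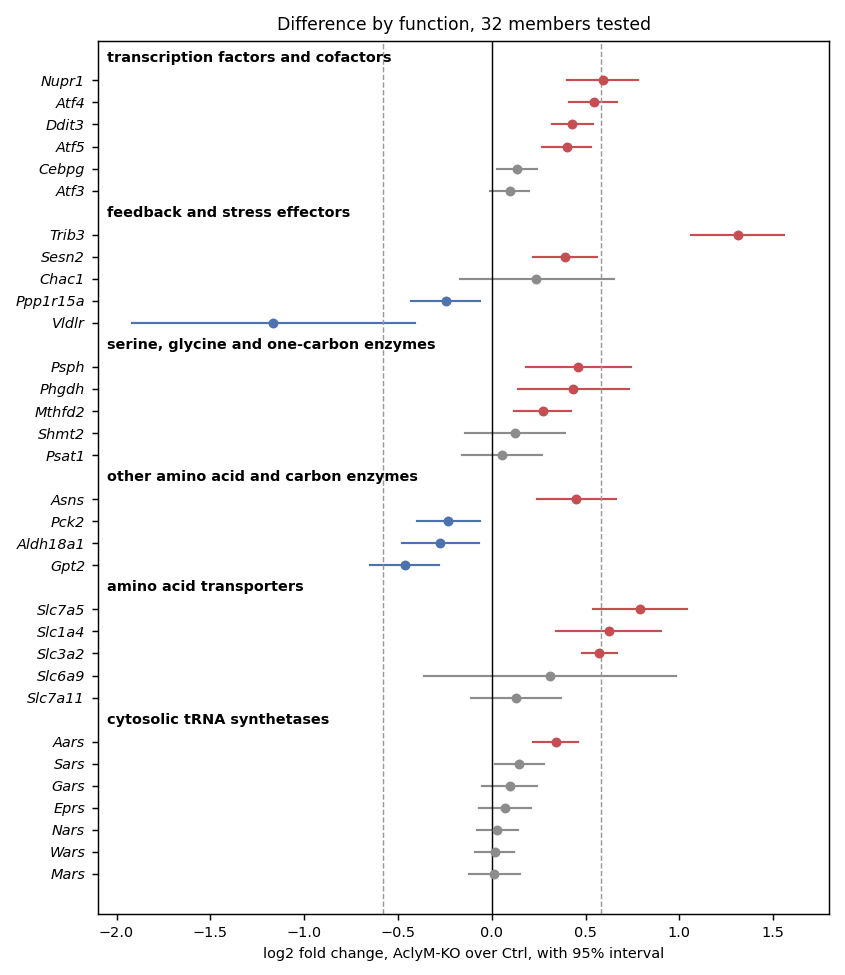
Log2 fold change of AclyM-KO over Ctrl with its 95% interval for the 32 members tested, grouped by function (red, rose; blue, lower; grey, adjusted p-value of 0.05 or more; dashed lines, the fold limit of 0.58 in either direction). *Trib3* at 1.31 and *Slc7a5* at 0.79 lie farthest to the right, the tRNA synthetase genes other than *Aars* lie between 0.01 and 0.15, and *Gpt2*, *Aldh18a1*, *Pck2*, *Ppp1r15a* and *Vldlr* lie to the left.

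The cytosolic tRNA synthetases, which load amino acids onto tRNAs and are common ATF4 targets, moved least. Of 7 genes, 1 rose and 6 did not pass the test, with a median log2 fold change of 0.07. A rise in 1 of 7 is near the share of 12.4% over all genes tested. *Aars*, the alanyl-tRNA synthetase gene, was at 255, 300 and 283 CPM in Ctrl and at 366, 353 and 342 CPM in AclyM-KO. It rose without overlap between groups (log2 fold change 0.34, standard error 0.0576, edgeR adjusted p = 0.000491). For the other 6 genes the levels were precise enough to bound the difference. The 95% intervals were -0.05 to 0.24 for *Gars*, 0.02 to 0.28 for *Sars*, -0.08 to 0.14 for *Nars*, -0.09 to 0.12 for *Wars*, -0.07 to 0.21 for *Eprs* and -0.12 to 0.15 for *Mars*, so that none reached the value of *Aars*. *Sars* (0.21) and *Eprs* (0.15) passed the test without Ctrl replicate 2.

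Tests could not be made for *Ddit4l*, *Stc2*, *Pycr1*, *Cth* and *Cbs*, which did not pass the filter on low counts. *Ddit4l*, a relative of the mTORC1 inhibitor gene *Ddit4*, had 6, 8 and 5 counts in the Ctrl libraries, compared with 16, 16 and 6 in the AclyM-KO libraries. *Cth*, whose product makes cysteine from cystathionine, had 6, 8 and 7 counts in the Ctrl libraries, compared with 3, 1 and 2 in the AclyM-KO libraries. *Pycr1*, the last enzyme of proline synthesis, had 3, 5 and 13 counts in the Ctrl libraries, compared with 9, 1 and 6 in the AclyM-KO libraries. The secreted glycoprotein gene *Stc2* had 0, 7 and 1 counts in the Ctrl libraries, compared with 0, 0 and 2 in the AclyM-KO libraries. *Cbs*, which starts transsulfuration, had 1 count in each group. These genes were at most barely expressed in these macrophages, and only *Cth* had groups that did not overlap.

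The members were also counted by whether a listed promoter held the ATF4 letters. Among the 11 tested members with a match, 5 rose and 2 fell, with a median log2 fold change of 0.24. Among the 18 tested members with a listed promoter and no match, 8 rose and 3 fell, with a median of 0.21. Over all genes tested, the shares that rose and fell were 12.4% and 12.6%. These shares were not split by match for all genes. The 3 members with a listed promoter that rose beyond the fold limit, *Trib3*, *Slc1a4* and *Nupr1*, each had a match, as did *Vldlr*, the only member that fell beyond it, and no promoter was listed for *Slc7a5*. *Atf4* (0.54), *Ddit3* (0.43) and *Slc3a2* (0.57) rose without a match in this window. *Slc3a2* and *Atf4* lay just inside the fold limit and *Nupr1* (0.59) just outside it, so this split depends on where the limit lies. *Vldlr* had few counts and passed the low count filter through Ctrl only.

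Other genes of the pathway were followed through 4 further lists. In the list of eIF2 kinases and the eIF2 machinery, 2 of 20 genes rose and 0 fell, with a median log2 fold change of 0.03. Of all genes tested, 12.4% rose and 12.6% fell. The genes of the 4 eIF2 kinases were among those that did not pass the test, at 0.03 for *Eif2ak1*, 0.08 for *Eif2ak2*, -0.06 for *Eif2ak3*, which encodes PERK, and -0.23 for *Eif2ak4*, which encodes the amino acid sensor GCN2 (edgeR adjusted p = 0.0512 for the last). Chosen after its values were seen, *Impact*, the gene of an inhibitor of GCN2 activation, had 126, 127 and 132 CPM in Ctrl and 182, 176 and 175 CPM in AclyM-KO (0.47, standard error 0.0481, edgeR adjusted p = 4.12e-06). The second gene that rose, also named after its values were seen, was *Eif2s1*, which encodes the phosphorylated subunit of eIF2 (0.17, edgeR adjusted p = 0.0239).

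Among 21 tested genes of a list of other ATF4-regulated genes, 7 rose and 3 fell, beside 12.4% and 12.6% of all genes. The median log2 fold change of this list was 0.15. Beyond the fold limit were *Gdf15* and *Slc38a2*. *Gdf15*, which encodes a secreted stress cytokine, was at 28.4, 30.8 and 33.2 CPM in Ctrl and at 58.3, 62.8 and 57.8 CPM in AclyM-KO (log2 fold change 0.96, standard error 0.0687, edgeR adjusted p = 1.76e-07). *Slc38a2*, the amino-acid-responsive transporter SNAT2, was at 153, 172 and 162 CPM in Ctrl and at 249, 250 and 264 CPM in AclyM-KO (log2 fold change 0.65, standard error 0.0542, edgeR adjusted p = 6.16e-07). Neither gene had overlapping groups, and both kept an adjusted p-value under 0.05 under all 16 alternatives run for single genes. In the reported test neither reached a fold limit of 1, and *Gdf15* was at 1.01 without Ctrl replicate 3. In the lists of 16 other cytosolic and 17 mitochondrial tRNA synthetase genes (the former with 3 subunits of the synthetase complex), 2 and 2 rose and 1 and 0 fell, with medians of 0.05 and 0.10. The rises in both lists were near the share of 12.4% over all genes. Among the mitochondrial genes *Lars2* varied between 150 and 512 CPM, with Ctrl replicate 1 and AclyM-KO replicates 2 and 3 high, and its groups overlapped.

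**Figure D4:**
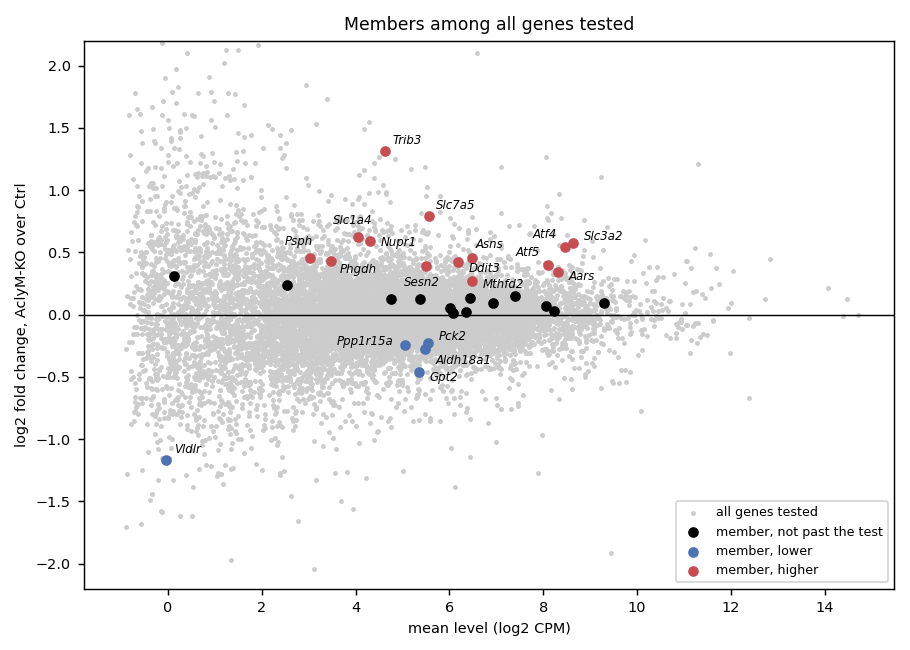
Log2 fold change of AclyM-KO over Ctrl against the mean level as log2 CPM for all 12023 genes tested (grey) and the 32 members (red, rose; blue, lower; black, not past the test); 19 genes lie outside the range of the vertical axis. The red points cover levels from *Psph* to *Slc3a2*. *Trib3* stands highest among the members, most red points lie within the range of the grey points, and *Vldlr* lies among genes with few counts.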

How the data were processed

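RNA of 6 BMDM cultures (3 Ctrl, 3 AclyM-KO, all with IL-4) was sequenced. The authors made strand-specific mRNA libraries, called bases with CASAVA 1.8.2, aligned reads to mm10 with STAR 2.5.2b and deposited raw read counts per RefSeq transcript. The counting program is not given in the sources used here. *Xist* and its antisense gene *Tsix* had the same count in Ctrl replicate 1 (7864 each), so counts did not separate strands. Of 35745 rows, 35440 were paired with symbols through RefSeq for GRCm38.p6 and 188 through GENCODE M21. The other 117 rows, with 0.370% to 1.38% of counts, were left out. The row with the highest total was kept per gene. No per-sample column was left unused.

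The quasi-likelihood test of edgeR 4.0.16 (R 4.3.3) was run on the deposited counts, with genotype alone in the model (glmQLFit, glmQLFTest), TMM scaling, filterByExpr with at least 10 counts, and Benjamini-Hochberg adjustment over 12023 genes. The common biological coefficient of variation was 0.0588. Intervals are 95% intervals from the edgeR standard error. An exact permutation test of 3 against 3 libraries cannot go below p = 0.10 and was not used. Positions and exons are those of GENCODE M21 on GRCm38. The scripts were tested on simulated data. Alternatives were DESeq2 1.42.0, limma-voom (limma 3.58.1), other scalings, filters and fold limits, other rows, thinning, a replicate block and libraries left out. The members and lists were chosen with earlier results of these data known. The rule for named genes was *Acly*, all members and, from the other lists, genes past the test and the fold limit. The fold limit of 0.58 is that of the study, which used DESeq2. Some promoter matches are not reported here.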

Additional observations from a re-analysis of the deposited data

How the results depend on the processing

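Among the members, 14 rose in the reported test and 11 to 16 with a library left out, and 12 with DESeq2. The calls lost with DESeq2 were the rises of *Phgdh* and *Psph* and the falls of *Ppp1r15a*, *Pck2* and *Vldlr*. The 5 that fell became 2 with DESeq2, 3 with limma-voom, 2 with upper quartile scaling, 1 to 3 with a library left out and 2 without Ctrl replicate 1 and AclyM-KO replicate 3, a pair chosen after seeing the data. Past the fold limit, 3 to 6 rose and 0 to 1 fell with a library left out, 1 rose with glmTreat or with a fold limit of 1, and 0 fell with DESeq2, with thinning, with glmTreat and without that pair. The median ranged from 0.13 to 0.31 with a library left out. Over all genes, 145 rose and 80 fell past a fold limit of 1, 77 and 41 with glmTreat, 895 and 891 passed the test without the pair, and 972 to 1548 fell and 1002 to 1512 rose with a library left out (past the fold limit, 271 to 317 and 315 to 374). Signs changed in genes near 0. With a library left out, *Mars* ranged from -0.039 to 0.088 (below 0 without Ctrl replicate 1 or 2 or AclyM-KO replicate 2), *Psat1* from -0.091 to 0.17, *Shmt2* from -0.066 to 0.31, *Slc7a11* from -0.025 to 0.26 and *Eprs* from -0.00077 to 0.15 (lowest without Ctrl replicate 1, highest without Ctrl replicate 2), *Nars* from -0.016 (Ctrl replicate 1) to 0.055 and *Wars* from -0.0012 (AclyM-KO replicate 2) to 0.035. *Mars* was at -0.0041 with thinning, and *Mars* (-0.014), *Psat1* (-0.025) and *Shmt2* (-0.04) were below 0 without the pair. The causes were not tested.

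Replicate numbers are not said to pair libraries, and deviations of libraries with the same number correlated at -0.118, 0.0553 and -0.0587. With the replicate block 14 members rose and 5 fell, as without it. Depth limits what can be said of members with few counts, such as *Chac1*, *Slc6a9*, *Vldlr* and the 5 not tested.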
